A study of Mus musculus with 3 samples.

Results

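The mesenchymal transcription factors described here are 10 genes taken by name from the transcript tables: Prrx1, Prrx2, Twist1, Twist2, Snai1, Snai2, Zeb1, Zeb2, Tcf7l2 and Meox1. All 10 were among the 35562 genes listed, of which 25510 were detected (a nonzero TPM in 1 or more libraries). The libraries came from 3 myoblast lines, numbered 66, 67 and 72, of the genotype Dmdmdx; Pax7-nGFP, in which the mdx mutation of the dystrophin gene had been targeted with CRISPR/Cas9. Per the study, Dmdmdx; Pax7-nGFP iPSCs were reprogrammed from mouse embryonic fibroblasts, edited around exon 23, and injected into mouse blastocysts carrying Pax7Cre/ERT2 and Rosa26lsl-DTA, an allele pair that ablates host PAX7+ cells after tamoxifen. The nuclear GFP of the Pax7-nGFP reporter was used to purify the satellite cell-derived myoblasts by FACS. The lines make up 1 condition (n = 3), and the labels give neither the tamoxifen treatment nor the chimera of each line, nor whether the lines came from separate animals. The SD over lines therefore measures only the spread between these 3 libraries, and no test between conditions was possible.

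These factors are best known for keeping cells of the embryonic mesenchyme in a motile, non-epithelial state. SNAI and ZEB proteins are zinc finger repressors that bind E-box sequences in the promoters of cell adhesion genes, TWIST proteins are basic helix-loop-helix factors that pair with E proteins, and PRRX proteins are homeodomain factors of limb and skeletal mesenchyme. TCF7L2 carries the transcriptional output of Wnt and β-catenin, and in muscle it is used as a marker of connective tissue fibroblasts, while MEOX1 is a homeodomain factor of the somites from which muscle arises. Several of them also act in the myogenic lineage: SNAI factors restrict MYOD access to differentiation genes in myoblasts, and TWIST factors hold back MYOD activity.

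The 10 genes spread over more than 2 orders of magnitude in TPM (a level corrected for transcript length and scaled to 1000000 per library, used here for comparisons between genes). At least 10 TPM in every line was reached by 6 of 10 members, namely Prrx1, Prrx2, Zeb2, Snai2, Tcf7l2 and Zeb1, where 31.5% of all detected genes reached it. With coding transcripts alone, 5 of 10 did, without Zeb1. Snai1 lay between 1 and 10 TPM in every line, and Twist2, Twist1 and Meox1 formed the low end. The order of the means was Prrx1, Prrx2, Zeb2, Snai2, Tcf7l2, Zeb1, Snai1, Twist2, Twist1 and Meox1. The line ranges of 4 neighbouring pairs in this order overlapped (Prrx1 with Prrx2, Zeb2 with Snai2, Twist2 with Twist1, and Twist1 with Meox1), and those of the other 5 pairs did not. Within lines, the gene named earlier was the higher in 3 of 3 lines for Zeb2 with Snai2 and for Twist2 with Twist1, and in 1 of 3 for Prrx1 with Prrx2 and for Twist1 with Meox1. In bulk RNA, fewer cells expressing a gene and less of its RNA per cell cannot be told apart.

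**Figure D1:**
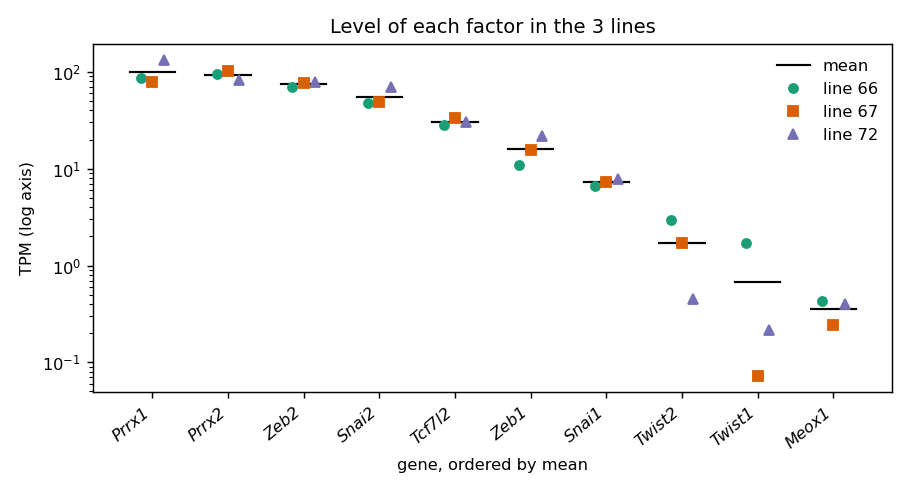
Level of each factor in TPM (log axis) by gene, with 1 point for each of lines 66, 67 and 72 and a bar at their mean. Prrx1, Prrx2, Zeb2 and Snai2 lie at or above 48.0 TPM in every line, and Twist1 stands at 1.72 TPM in line 66 against 0.0719 and 0.215 TPM in the others.

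The homeobox genes Prrx1 and Prrx2 had the highest mean TPM of the set, a place that Prrx2 held on TPM of all transcripts alone. It was above Zeb2 in 3 of 3 lines on that scale and in 0 of 3 lines on TPM of coding transcripts or on counts without length correction. Over coding transcripts the mean was 64.2 TPM for Zeb2, 56.0 for Prrx1, 55.6 for Snai2 and 44.9 for Prrx2. Prrx1 (chr1:163245119-163313710, GRCm38, minus strand) measured 86.9, 77.7 and 133 TPM in lines 66, 67 and 72, a mean of 99.3 ± 29.8 TPM (SD, n = 3), which lay above 93.5% of detected genes. Line 72 was the highest and line 67 the lowest, 1.71-fold apart. Prrx2 (chr2:30834972-30881251, plus strand) took the opposite order of lines, with 93.9, 103 and 82.1 TPM (93.1 ± 10.6). The log2 ratio of Prrx1 to Prrx2, on the log2(TPM + 1) scale, was accordingly -0.11, -0.41 and 0.69 in lines 66, 67 and 72, so that Prrx1 was the higher paralog in 1 of 3 lines. On CPM (estimated counts scaled to 1000000 per library, not divided by length), Prrx1 was higher in 3 of 3 lines, with ratios of 3.57, 2.81 and 6.41.

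Transcripts of different length weigh differently on the 2 scales. The coding transcripts of Prrx1 are 4952 to 6527 bases long and those of Prrx2 1070 and 1441 bases. A noncoding Prrx1 transcript of 1335 bases, Prrx1-205, held 14.5% to 16.5% of the Prrx1 counts and 41.9% to 45.9% of the Prrx1 TPM. For Prrx2, transcripts that keep an intron held 36.7%, 37.1% and 37.9% of the counts and 51.3%, 52.1% and 51.9% of the TPM in lines 66, 67 and 72. With protein-coding transcripts alone, Prrx1 stood at 48.7, 42.0 and 77.4 TPM and Prrx2 at 45.7, 49.5 and 39.4 TPM, and Prrx1 was the higher in 2 of 3 lines. Reads that fit several transcripts of a gene are divided by estimation, so these shares carry an error that the tables do not give.

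Prrx1 coding transcripts came in 3 coding lengths, of which the 2 longer are known to give proteins with different C-termini. The form of 735 coding bases took 51.0%, 59.8% and 55.9% of the coding counts in lines 66, 67 and 72, the form of 651 bases 34.3%, 24.1% and 29.5%, and the form of 600 bases 14.7%, 16.1% and 14.6%. The 735-base form was the most abundant in every line. Prrx2 was carried in its coding part by the short form of 525 bases, at 81.8%, 79.9% and 82.3% of the coding counts, against 18.2%, 20.1% and 17.7% for the 741-base form.

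**Figure D2:**
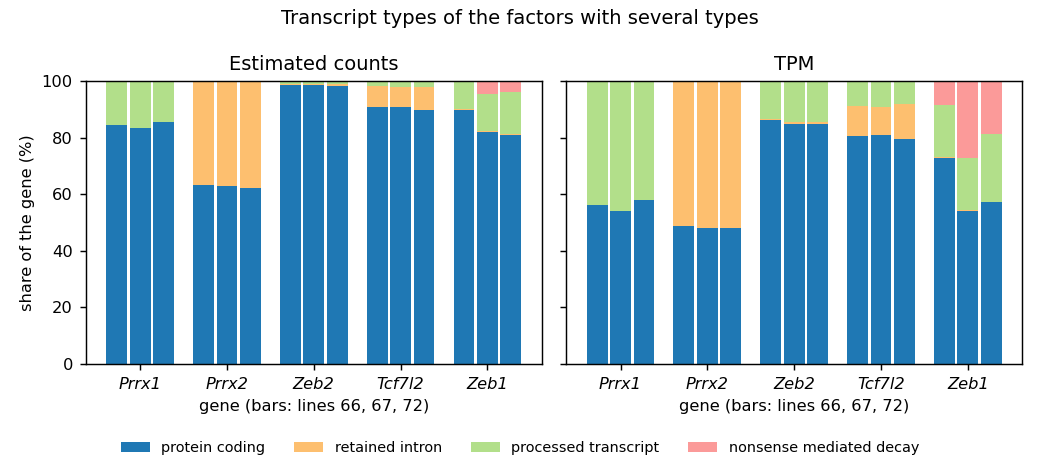
Share of each gene's estimated counts (left) and TPM (right), in percent, on each transcript type, for the 5 factors with several types, with 1 bar each for lines 66, 67 and 72. Coding transcripts hold 83.4% to 85.5% of the Prrx1 counts and 54.0% to 58.1% of its TPM, and Zeb1 is the gene whose composition differs most visibly between lines.

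Of the SNAI zinc finger repressors, Snai2 was high and Snai1 was low. Snai2 (chr16:14705852-14709385, plus strand), which encodes SLUG, measured 48.0, 49.3 and 69.6 TPM in lines 66, 67 and 72 (55.6 ± 12.1). Line 72 stood apart from the other lines, which were nearly equal. Snai1 (chr2:167538195-167542814, plus strand), which encodes SNAIL, measured 6.59, 7.28 and 7.90 TPM (7.26 ± 0.656), from 642, 659 and 749 counts. Snai2 exceeded Snai1 by 7.29-, 6.77- and 8.81-fold within the 3 lines, a log2 ratio on the log2(TPM + 1) scale of 2.76 ± 0.20. This was the ratio with the smallest SD over lines among the 4 paralog pairs.

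Zeb2 likewise exceeded Zeb1. Zeb2 (chr2:44983632-45117395, minus strand), which encodes SIP1, measured 69.5, 77.1 and 79.3 TPM (75.3 ± 5.15), and at 1.14-fold between the highest and lowest line it varied least of the 10 genes. Zeb1 (chr18:5591860-5775467, plus strand) measured 10.8, 15.7 and 21.8 TPM in lines 66, 67 and 72 (16.1 ± 5.51). The log2 ratio of Zeb1 to Zeb2 was -2.58, -2.23 and -1.82, and it was negative in 3 of 3 lines.

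Zeb1 was 2.02-fold apart between lines 72 and 66 in TPM, but a part of that range lay in transcripts not annotated as protein-coding. Transcripts annotated for nonsense-mediated decay held 4, 105 and 130 counts in lines 66, 67 and 72, and processed transcripts without a coding sequence held 201, 292 and 512. Coding transcripts measured 7.87, 8.47 and 12.5 TPM, a 1.58-fold range, and all Zeb1 counts together gave 28.0, 33.4 and 48.3 CPM, a 1.73-fold range. On both scales line 72 remained the highest line. Among 8428 genes averaging 10 TPM or more, the line patterns nearest to that of Zeb1 were those of Mybph, a myosin binding protein, Gas1, a hedgehog coreceptor, and Ephb2, an ephrin receptor. Mybph measured 47.7, 69.9 and 94.3 TPM. Gas1 measured 15.5, 21.7 and 30.1 TPM. Ephb2 measured 12.2, 17.6 and 23.7 TPM. Their Euclidean distances from Zeb1 over 3 lines, in centred log2(TPM + 1), were 0.029, 0.032 and 0.034, and 3 points allow many genes to come close.

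The basic helix-loop-helix genes Twist1 and Twist2 were low and differed most between lines. Twist2 (chr1:91801461-91848028, plus strand) measured 2.97, 1.73 and 0.449 TPM in lines 66, 67 and 72 (1.72 ± 1.26), from 197, 105 and 28 counts. Its 6.61-fold range ran from line 66, the highest, to line 72, the lowest. By CPM the ratio of line 66 to line 72 was 6.75, with an exact 95% interval of 4.53 to 10.4 that covers counting error only. Twist1 (chr12:33957671-33959829, plus strand) measured 1.72, 0.0719 and 0.215 TPM (0.669 ± 0.913), from 129, 5 and 15 counts. Line 66 thus held the great majority of the Twist1 reads, with 23.6 times the CPM of line 67 (exact interval 9.85 to 73.9) and 8.25 times that of line 72 (4.82 to 15.2). The counts of 5 and 15 lie close to the 3 counts that a count of 0 allows, so the size of these folds is loosely set. Twist2 was above Twist1 in 3 of 3 lines, and Twist1 made up 36.7%, 4.0% and 32.3% of the summed TPM of the pair.

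The 2 genes with the remaining roles differed in level. Tcf7l2 (chr19:55741820-55933654, plus strand) was steady at 27.9, 33.4 and 30.6 TPM (30.7 ± 2.74), from 4085, 4410 and 4227 counts. Its coding counts lay mainly on transcripts of 1377 coding bases, with 58.7%, 50.9% and 52.4%, followed by those of 1326 bases, with 21.6%, 27.9% and 28.6%. Forms of 1794 bases held 5.24%, 7.61% and 7.47%. Meox1 (chr11:101877510-101894374, minus strand) measured 0.430, 0.243 and 0.397 TPM (0.357 ± 0.0997), from 46, 24 and 41 counts, and was the lowest of the set by mean. It was above the 3-count limit in every line, and by CPM line 66 was 1.75 times line 67, with an exact 95% interval of 1.05 to 3.0. The intervals of the other ratios between lines held 1.

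Among the 8 members averaging 1 TPM or more, 2 were over 2-fold apart between the highest and lowest line, Twist2 and Zeb1, where 7.19% of all 12528 such genes were. The share among genes depended on level. It was 2.47% for genes averaging 10 TPM or more, where Zeb1 was the member past the threshold of 6 members. It was 16.9% for genes of 1 to 10 TPM, with Twist2 of 2 members, and 48.2% for genes of 0.1 to 1 TPM, with Twist1 of 2 members. Without any filter 38.7% of detected genes and 3 of 10 members were past 2-fold. On counts scaled by edgeR's TMM or by DESeq2's size factors, Zeb1 stood at 1.68-fold in each case, below the threshold, and Twist2 at 6.95- and 6.93-fold. The other 6 members of at least 1 TPM ranged from 1.14-fold for Zeb2 to 1.71-fold for Prrx1, where the median gene was at 1.22-fold.

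**Figure D3:**
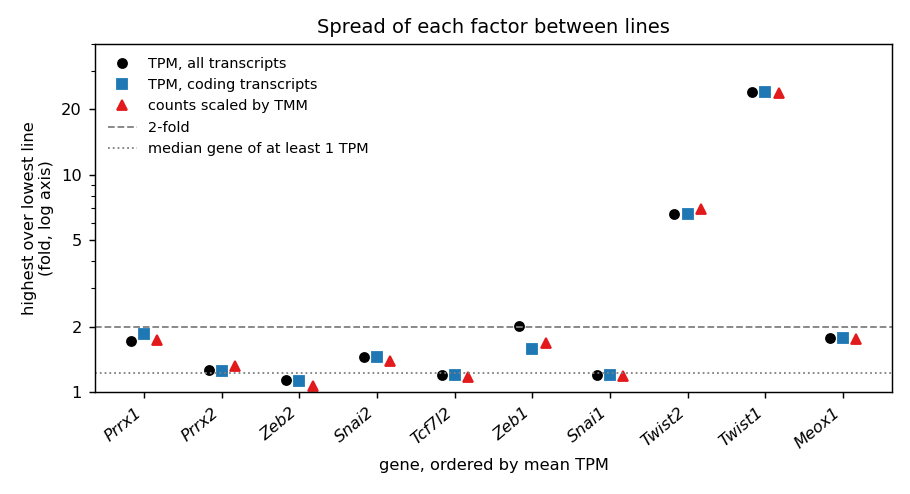
Ratio of the highest to the lowest line (log axis) for each factor, from TPM of all transcripts, TPM of coding transcripts and counts scaled by TMM, with lines at 2-fold and at the median of genes averaging 1 TPM or more. Twist2 and Twist1 lie far above 2-fold on every scale, and Zeb1 passes 2-fold on TPM of all transcripts alone.

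The sequences of the paralogs bear on how well their reads can be separated, since the counts were made with kallisto, which by default matches words of 31 bases. The longest exact runs shared on the same strand by the transcripts of Prrx1 and Prrx2, of Twist1 and Twist2, and of Snai2 and Snai1 were 19, 23 and 23 bases, all shorter than such a word. They are shown in full because they are the longest stretch that reads of each pair could share, and no base is set in capitals.
Prrx1 and Prrx2: tcaacatggccaacagcat
Twist1 and Twist2: ctgcgcaagatcatccccacgct
Snai2 and Snai1: catgccgcgctccttcctggtca
The Prrx run lies in the coding part of exon 4 of each gene, at chr1:163248325-163248343 for Prrx1 and chr2:30880845-30880863 for Prrx2. The Twist run lies in exon 1 and encodes a piece of the helix-loop-helix domain, at chr12:33958380-33958402 for Twist1 and chr1:91801891-91801913 for Twist2. The Snai run spans the start codon in exon 1, at chr16:14705973-14705995 for Snai2 and chr2:167538289-167538311 for Snai1, and encodes the N-terminal SNAG domain through which these repressors recruit corepressors. Positions are those of GRCm38 from GENCODE M21.

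The longest run shared by Zeb1 and Zeb2 was 35 bases. Between 96.7% and 100% of the 31-base words of 9 members occurred in no other listed gene. Twist2 was the exception, at 54.0%, because an antisense gene, Gm29100, covers 1477 bases of its exons on the opposite strand. Gm29100 held 33, 23 and 1 counts in lines 66, 67 and 72, against 197, 105 and 28 for Twist2. The library kit keeps strand, but the strand setting of the counting is not given in the sources used here, so reads of this pair may not be separable. Zeb2 shares 633 exon bases with the antisense gene Zeb2os, whose 196, 185 and 241 counts are small beside the 13436, 13177 and 13847 of Zeb2. Zeb1 shares 198 bases with Gm10125, which held 28.7, 55.6 and 60.0 counts.

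Relatives from the same families were measured beside the members. Of 15 such genes, 2 reached 10 TPM in every line, beside 31.5% of detected genes, and 10 stayed below 1 TPM in every line, a share near the 63.5% of all listed genes, with Tcf15, Hand1 and Hand2 at a count of 0 throughout. The median of log2(TPM + 1) was 0.12 ± 0.03 over the relatives, 4.51 ± 0.28 over the members and 0.88 ± 0.03 over all detected genes (SD over 3 lines). The last value leaves out genes at 0 in every line, which the list of relatives holds. Scx, a helix-loop-helix factor of tendon, was the highest relative and measured 45.9, 44.2 and 44.6 TPM, nearly the same in every line. Tcf7l1 and Tcf7, which like Tcf7l2 bind β-catenin, followed at means of 30.6 ± 4.19 and 11.5 ± 1.88 TPM. Within this TCF/LEF family, Tcf7l1 and Tcf7l2 had overlapping line ranges.

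The partners of these factors were present throughout. All 24 partner and corepressor genes were at or above 10 TPM in every line, beside 31.5% of detected genes. Their median log2(TPM + 1) was 6.21 ± 0.04. None was over 2-fold apart between lines, a share near the 2.47% of genes averaging 10 TPM or more. Ctnnb1, which encodes the β-catenin bound by Tcf7l2, led with 580, 531 and 568 TPM. Id3 and Id2, inhibitors that sequester the E proteins needed by TWIST, followed at means of 395 ± 78.5 and 287 ± 58.7 TPM. Both of these Id genes were highest in line 66, the line with the highest Twist1 and Twist2. The same line was highest for other partners too, among them Id1, Ctnnb1 and the E protein gene Tcf3. The E protein genes Tcf4 and Tcf12 were instead highest in line 72. A link between the partner levels and the Twist levels was not tested.

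Genes of the signals that act upstream of these factors spread widely in level. Of 18 signalling genes, 9 reached 10 TPM in every line, beside 31.5% of detected genes, and 3 stayed below 1 TPM in every line, beside 63.5% of listed genes, with a median log2(TPM + 1) of 3.97 ± 0.14. The highest were Hif1a, the hypoxia-responsive factor, at 83.9 ± 8.75 TPM, the BMP receptor gene Bmpr1a at 68.9 ± 5.56 TPM and the FGF receptor gene Fgfr1 at 66.3 ± 8.28 TPM. Of the 15 averaging 1 TPM or more, the Wnt ligand genes Wnt5a and Wnt7b were over 2-fold apart between lines, beside 7.19% of all such genes, Wnt5a with 1.08, 1.67 and 2.26 TPM and Wnt7b with 23.0, 8.65 and 17.8 TPM. Axin2, a common target gene of β-catenin with the TCF factors, measured 0.188, 0.113 and 0.248 TPM. Of the noncoding genes linked to the set, Zeb2os measured 5.05 ± 0.604 TPM, Dnm3os 2.0 ± 0.520 TPM and Mir9-3hg had a count of 0 in every line.

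Genes of the mesenchymal phenotype were high and epithelial genes were low. Of 16 mesenchymal structural genes, 12 reached 10 TPM in every line, beside 31.5% of detected genes, and their median log2(TPM + 1) was 6.41 ± 0.38. Vim, the intermediate filament vimentin, measured 8091, 8693 and 7194 TPM. S100a4, a calcium-binding protein of motile cells, measured 553, 1712 and 933 TPM, and Sparc, a matrix glycoprotein, 512, 386 and 518 TPM. Of the 14 genes of this list averaging 1 TPM or more, 3 were over 2-fold apart between lines, beside 7.19% of all such genes, namely S100a4, the metalloproteinase gene Mmp2, highest in line 67, and the collagen gene Col1a2 with 7.47, 28.3 and 37.0 TPM. Col1a1, the partner chain of Col1a2 in type I collagen, measured 0.311, 0.103 and 0.193 TPM. Of 20 epithelial genes, 0 reached 10 TPM in every line, beside 31.5% of detected genes, and 17 stayed below 1 TPM in every line, beside the 63.5% of all listed genes, with a median log2(TPM + 1) of 0.14 ± 0.03. Cdh1, the epithelial cadherin, measured 0.193, 0.315 and 0.153 TPM, and Crb3 and Ovol2 had a count of 0 throughout.

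The exceptions among the epithelial genes were the claudin gene Cldn4 and the keratin genes Krt19 and Krt18. Cldn4 measured 54.8, 10.1 and 5.99 TPM in lines 66, 67 and 72, from 5700, 979 and 590 counts. Krt19 measured 19.1, 8.10 and 12.9 TPM, and Krt18 4.05, 3.17 and 3.19 TPM. All 3 were highest in line 66, whereas Cdh1 was highest in line 67. Krt19 lies on chromosome 11, whose genes were shifted upwards in line 66 by a median log2 of 0.32 over genes averaging 10 TPM or more, and the part of that shift in its level was not tested.

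**Figure D4:**
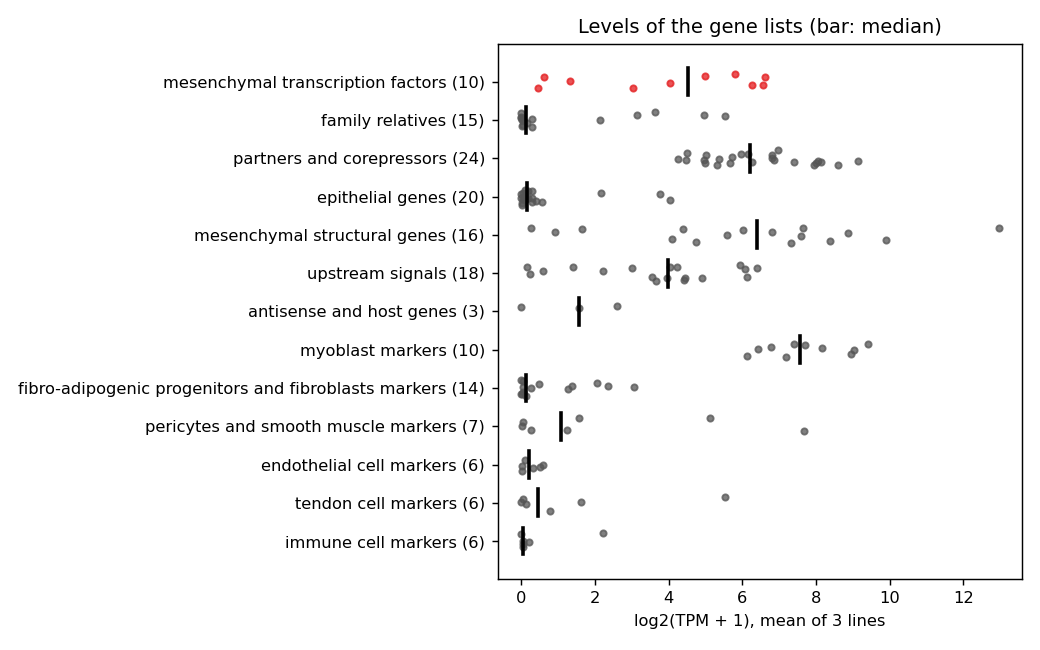
Level of each gene of 13 lists as log2(TPM + 1), averaged over 3 lines, with a bar at the list's median and the number of genes in brackets. The factors spread from 0.44 to 6.61, the partners lie above the middle of that range, and the epithelial, relative and fibroblast lists sit near 0 with a few genes apart.

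SNAI and ZEB proteins bind the E-box CACCTG, whose reverse complement is CAGGTG, so a match to either spelling is a match on one strand or the other, and the spellings cannot overlap. Promoters were taken from RefSeq (GRCm38.p6) as 250 bases before to 50 bases after each annotated start. Of all 32851 promoters, 20.2% held the box. Entries were found for 12 of the 20 epithelial genes, and 14 of their 16 promoters (87.5%) held it, covering 11 of the 12 genes: Cldn3, Cldn4, Cldn7, Crb3, Dsp, Epcam, Krt8, Krt18, Ocln, Rab25 and Tjp3. Of the mesenchymal structural genes, 1 of 11 promoters held the box, and of the partners 1 of 24. Of the 10 members, 7 had entries, with 1 of 11 promoters holding it, that of Snai1. A match describes letters in the window and does not show a bound site.

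The promoters of Snai1 and of 3 epithelial genes at different levels are shown, from 5′ to 3′ on the strand of the gene, with the boxes in capitals. Snai1 was the single member with the box among those with a promoter entry. Cldn4 was the highest epithelial gene by mean, through line 66, while in line 72 Krt19 was above it (12.9 against 5.99 TPM). Epcam, an adhesion molecule, and Krt8, the keratin that pairs with Krt18, had mean levels of 0.218 and 0.0945 TPM. The windows are chr2:167537945-167538244 (plus strand) for Snai1, chr5:134946885-134947184 (minus) for Cldn4, chr17:87635729-87636028 (plus) for Epcam and chr15:102004293-102004592 (minus) for Krt8.
Snai1: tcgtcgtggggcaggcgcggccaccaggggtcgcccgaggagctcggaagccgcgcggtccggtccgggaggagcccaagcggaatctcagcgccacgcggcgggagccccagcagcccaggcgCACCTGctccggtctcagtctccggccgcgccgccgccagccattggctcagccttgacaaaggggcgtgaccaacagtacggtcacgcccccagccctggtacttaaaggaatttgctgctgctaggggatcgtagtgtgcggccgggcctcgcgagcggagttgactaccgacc
Cldn4: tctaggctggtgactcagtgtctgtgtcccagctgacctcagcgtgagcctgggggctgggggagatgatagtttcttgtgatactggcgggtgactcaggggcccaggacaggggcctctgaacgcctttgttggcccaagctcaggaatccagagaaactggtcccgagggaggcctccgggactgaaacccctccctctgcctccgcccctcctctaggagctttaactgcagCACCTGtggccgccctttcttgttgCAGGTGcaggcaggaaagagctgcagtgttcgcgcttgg
Epcam: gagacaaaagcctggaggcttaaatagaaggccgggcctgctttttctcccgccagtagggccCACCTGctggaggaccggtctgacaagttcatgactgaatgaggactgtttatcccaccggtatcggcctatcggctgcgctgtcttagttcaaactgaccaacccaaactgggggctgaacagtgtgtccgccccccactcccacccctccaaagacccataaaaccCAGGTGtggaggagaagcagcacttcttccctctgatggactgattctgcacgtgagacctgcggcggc
Krt8: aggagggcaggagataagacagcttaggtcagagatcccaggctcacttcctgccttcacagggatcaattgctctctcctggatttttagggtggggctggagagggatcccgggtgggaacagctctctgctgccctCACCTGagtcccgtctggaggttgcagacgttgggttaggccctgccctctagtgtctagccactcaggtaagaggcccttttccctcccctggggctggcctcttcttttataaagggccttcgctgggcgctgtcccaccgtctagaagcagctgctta
The box of Snai1 begins 126 bases before the start, and that of Krt8 111 bases before it. The boxes of Cldn4 begin 14 bases before and 11 bases after the start, and those of Epcam 187 and 19 bases before it. Cldn4 and Epcam thus hold 2 boxes each and differ in level by a wide margin in every line. In lines 66, 67 and 72, Cldn4 measured 54.8, 10.1 and 5.99 TPM and Epcam 0.258, 0.117 and 0.280 TPM.

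Zeb2 has several annotated starts, and its estimated counts were spread over transcripts that begin at different ones. These shares are estimates per transcript, and the use of each start was not measured. Transcripts that begin within 150 bases of the most upstream RefSeq start held 27.4%, 28.5% and 27% of the Zeb2 counts in lines 66, 67 and 72. A pair of neighbouring starts further downstream held 8.50%, 7.65% and 6.15%, and the most downstream start 18.3%, 21.7% and 18%. The largest single transcript, Zeb2-201, held 41.1%, 39.2% and 44.5%, and its annotated 5′ end lies outside these distances but inside the window printed for the downstream start. The promoters of the upstream start (chr2:45117393-45117692, minus strand) and of the downstream start (chr2:45110228-45110527) are shown because most Zeb2 counts lay on transcripts that begin at or in them. Neither holds the box, so no base is in capitals.
Zeb2 upstream: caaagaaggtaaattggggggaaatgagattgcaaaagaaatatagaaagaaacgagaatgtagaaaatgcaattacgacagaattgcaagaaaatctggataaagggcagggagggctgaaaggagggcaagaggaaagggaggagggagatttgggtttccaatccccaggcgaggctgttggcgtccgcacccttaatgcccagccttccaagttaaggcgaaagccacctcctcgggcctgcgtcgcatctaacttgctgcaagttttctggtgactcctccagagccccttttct
Zeb2 downstream: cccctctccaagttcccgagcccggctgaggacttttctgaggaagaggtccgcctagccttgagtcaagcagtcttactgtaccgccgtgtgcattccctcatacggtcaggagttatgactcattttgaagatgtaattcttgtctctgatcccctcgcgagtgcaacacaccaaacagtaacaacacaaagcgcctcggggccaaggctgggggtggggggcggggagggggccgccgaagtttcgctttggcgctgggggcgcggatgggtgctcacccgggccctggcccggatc
The coding counts of Zeb2 were divided between forms of 3645 coding bases, with 54.9%, 58.5% and 51.7%, and 3777 coding bases, with 41.7%, 39.8% and 45.3%. For Tcf7l2, transcripts near its upstream RefSeq start held 29.0%, 31% and 32.1% of the counts, and no listed transcript began near its downstream start.

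Libraries held between 66972426 and 73274315 estimated counts, in which the 3-count limit corresponds to 0.0409 to 0.0448 CPM. Of the 10 myoblast markers, led by Myod1, Chrna1 and Des, all were at or above 10 TPM in every line, beside 31.5% of detected genes, with a median log2(TPM + 1) of 7.56 ± 0.13. Since Prrx1, Twist2 and Tcf7l2 are also known from interstitial cells of muscle, the markers of other cells are given beside them. Of 14 fibro-adipogenic progenitor and fibroblast markers, 0 reached 10 TPM in every line, beside 31.5% of detected genes, 9 stayed below 1 TPM in every line, a share near the 63.5% of all listed genes, and Lum and Dpt had a count of 0. Their summed level was 19.6, 18 and 27 TPM in lines 66, 67 and 72, most of it from Osr1 (7.70, 9.95 and 5.09 TPM), Cd34 (13.8 TPM in line 72), Ly6a and Smoc2 (5.04 TPM in line 66). Pdgfra measured 0.454, 0.378 and 0.387 TPM, and Dcn had 4, 1 and 3 counts. The sum was highest in line 72, as Prrx1 was, through Cd34, while the median log2(TPM + 1) of the list was 0.12, 0.17 and 0.10, lowest in line 72. The part of these cells in the Prrx1 level was not tested.

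Of 7 pericyte and smooth muscle markers, 2 reached 10 TPM in every line, a share near the 31.5% of detected genes. They were Rgs5 with 356, 137 and 172 TPM and Notch3 with 37.6, 24 and 42.8 TPM, and Cspg4 followed. Pdgfrb, Myh11 and Kcnj8, 3 of the 7, stayed below 1 TPM in every line, beside 63.5% of all listed genes. The summed level of this list was 396, 168 and 218 TPM, highest in line 66 like Twist1 and Twist2, through Rgs5, while the median log2(TPM + 1) was 0.86, 1.18 and 1.22, lowest in line 66. The part of these cells in the Twist levels was not tested. Of 6 tendon markers, Scx alone reached 10 TPM in every line, beside the same 31.5%, Mkx and Thbs4 were lower and Kera had a count of 0. The 6 endothelial markers (led by Tek, Pecam1 and Kdr) summed to at most 1.81 TPM and the 6 immune markers (Cd68, Itgam and Cd3e) to at most 4.60 TPM in any line, with Adgre1 at a count of 0.

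The chromosomes of the members were examined for shifts between lines, in log2(TPM + 1). A shift was the median difference of a line from the mean of the others. It was taken over genes averaging 10 TPM or more, less the median of all such genes. Genes of chromosome 11, on which Meox1 lies, were shifted by 0.32 in line 66, and by -0.18 and -0.13 in lines 67 and 72. Each line was set against the mean of the others, so a rise in line 66 alone also gives negative values in lines 67 and 72. Meox1 itself, without subtraction of the median of all genes averaging 10 TPM or more, differed by 0.12, -0.19 and 0.07. Its levels were 0.430, 0.243 and 0.397 TPM, where the added 1 shrinks differences. The size of these differences is therefore not comparable with the shift of the chromosome. Twist1 and Twist2, which were high in line 66, lie on chromosomes 12 and 1, whose medians in that line were -0.03 and -0.06. The gene differences were 1.25 and 1.0, smaller than those in TPM itself because of the added 1.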

How the data were processed

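RNA of 3 libraries (1 condition) was sequenced by the authors after poly-A enrichment with a stranded kit. The authors deposited, for each of 121798 transcripts, an estimated count with no normalization and a TPM value, which is divided by effective length and scaled to 1000000 per library. The submitters' processing notes name bcl2fastq 2.20, fastp 0.20, kallisto 0.46.1 and GRCm39, and the annotation release and strand setting are not given in the sources used here. Transcripts were matched here by identifier to GENCODE M21 (GRCm38), which held 120686 of them, and the other 1112, with 0.493% to 0.535% of the counts, were left out. Counts and TPM were summed per gene. No test across conditions was run, and no sample was left out.

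The members and the other 13 gene lists were chosen with earlier results of these data known. The genes named are the members, the 3 highest genes of each list (1 marker list is not reported here), markers above 10 TPM in every line, and the 3 genes nearest to the most variable member of at least 10 TPM by Euclidean distance. Cdh1, Crb3, Ovol2, Epcam, Krt8, Axin2, Wnt5a, Wnt7b, Col1a1, Col1a2, Mmp2, Pdgfra, Dcn, Smoc2, the genes at a count of 0, the antisense genes Gm29100 and Gm10125, taken for their exon overlap with a member, and the genes with a promoter box were named after their values were seen. The same holds for the pericyte and smooth muscle markers Pdgfrb, Myh11 and Kcnj8. One partner gene was matched by its older symbol Aes, and Zeb1os1 had no match. Alternatives were a pseudocount of 0.1 in place of 1, CPM, coding transcripts alone, edgeR's TMM and DESeq2's size factors (on counts rounded to whole numbers), a fold of 1.5, other filters on low values, and leaving out each line. The code of the fold calls was run on simulated counts. The genes changed there had higher counts than Twist1 or Twist2 and changes well above 2-fold. That run therefore does not bear on the calls of Twist1, Twist2 or Zeb1. Intervals are exact at 95% and, like the limit of 3 counts, cover counting error only. Depth limits Twist1, Twist2 and Meox1 most. Scaling factors came from edgeR 4.0.16 and DESeq2 1.42.0 in R 4.3.3, and the other steps ran in Python 3.11.15 with scipy 1.17.1, pandas 2.3.3, numpy 2.4.6 and matplotlib 3.10.9.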

Additional observations from a re-analysis of the deposited data

How the results depend on the processing

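Of the 2 factors over 2-fold apart between lines, 1 was left under TMM, under DESeq2's size factors (1) and with a filter at a mean of 10 TPM (1), and between 0 and 2 when each line was left out, with 0 without line 72. The log2 ratio of Prrx1 to Prrx2 was 1.98 on CPM, where length is not corrected for, and ranged from -0.26 to 0.29 when each line was left out, turning negative (-0.26) without line 72. The ratio of Twist1 to Twist2 was -1.66 with a pseudocount of 0.1, that of Snai2 to Snai1 2.41 on CPM, and that of Zeb1 to Zeb2 -2.65 with coding transcripts. On CPM the list medians were 5.41 for the factors, 0.18 for relatives, 7.04 for partners, 7.29 for mesenchymal structural genes, 5.27 for upstream signals and 1.98 for antisense and host genes. With a pseudocount of 0.1 they were -2.42 for relatives, -2.30 for epithelial genes and 1.04 for antisense and host genes. The level of a factor moved by more than its SD for 7 of 10 on CPM, 7 on TMM, 5 with coding transcripts and 4 with a pseudocount of 0.1. The TMM values, like CPM, are not divided by length. Prrx1 stood at 7.68 on CPM and 7.69 on TMM, against 6.61 on log2(TPM + 1). The mean log2(TPM + 1) of Twist1, 0.61 over all lines, was 0.19 without line 66. No paired analysis was possible because there is a single group. Depth limits the ratios that involve Twist1, which has 5 and 15 counts in lines 67 and 72.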
